A study of Mus musculus with 6 samples.

Results

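The alpha-arrestins are a small family of adaptor proteins, and their transcripts were followed here in mouse liver labelled wildtype or deficient in Ugcg. The 5 members Arrdc1, Arrdc2, Arrdc3, Arrdc4 and Txnip were found by gene symbol among the 16331 gene probe sets of the deposited array table, and each had 1 probe set. The members were selected on their family, with the KO minus WT differences of these arrays, led by that of Arrdc3, already known, so those differences are given as a description and without a test. Liver RNA was measured on Affymetrix arrays in 3 wildtype samples (arrays WT 426, WT 428 and WT 430) and 3 samples labelled deficient in Ugcg (arrays KO 427, KO 429 and KO 431). Ugcg encodes UDP-glucose ceramide glucosyltransferase, which starts the synthesis of most glycosphingolipids. The labels name no allele, no driver of a deletion, and no strain, age, sex or feeding state. The labels do not say whether the samples came from separate animals, so errors and p-values describe the spread between these arrays, which may be technical.

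Alpha-arrestins carry the arrestin fold of the better known beta-arrestins and, in their tails, PPxY motifs that bind ubiquitin ligases of the NEDD4 family. They bring such ligases to receptors and transporters at the cell surface and so steer uptake and breakdown of these proteins. Txnip also binds thioredoxin and lowers glucose uptake through glucose transporters, and in liver its gene and Arrdc4 are known targets of the glucose-sensing factors MondoA and ChREBP. Arrdc3 is known for its action on beta-adrenergic receptors and on energy balance, and Arrdc1 for the budding of vesicles from the plasma membrane through the ESCRT protein Tsg101.

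Arrays were alike as a whole, with medians from 6.79 to 6.81 and correlations between pairs of arrays from 0.988 to 0.994 across probe sets. All values are log2 expression values as deposited, and differences are KO minus WT. The 8 measured hepatocyte markers averaged 13.47 to 13.50 on the WT and 13.49 to 13.52 on the KO arrays. Of these, 2 were higher, with 0.43 for Tat, and 6 were lower. The Ugcg probe set read 6.81, 6.85 and 6.87 on the WT arrays, 7.12 on KO 427, 6.70 on KO 429 and 6.68 on KO 431. The array labelled KO 427 thus lay above all WT arrays for Ugcg. The group means were 6.84 on the WT and 6.83 on the KO arrays, a difference of -0.0088 (SE 0.117). Where the probes lie relative to any deleted part of the gene is unknown here. The genotype labels therefore could not be checked from this probe set, and every direction below rests on them.

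Sequence upstream of 3 of these genes is shown to set the member with the largest difference, Arrdc3, beside the known glucose-responsive members Txnip and Arrdc4. RefSeq promoter windows of 300 bases (GRCm38.p6, 250 before to 50 after a transcription start) were matched for all 5 members, 7 windows in all. The 200 bases directly before the start are printed 5′ to 3′ on the gene's strand, from chr13:80883184-80883383 (plus strand, before the most upstream of 3 Arrdc3 starts), chr3:96557757-96557956 (plus strand) and chr7:68749239-68749438 (minus strand). Capitals mark matches to the motifs named in the next paragraph.
Arrdc3: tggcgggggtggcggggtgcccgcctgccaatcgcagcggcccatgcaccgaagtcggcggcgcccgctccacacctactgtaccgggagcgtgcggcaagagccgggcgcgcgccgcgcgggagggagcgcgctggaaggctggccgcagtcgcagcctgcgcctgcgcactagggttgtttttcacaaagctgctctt
Txnip: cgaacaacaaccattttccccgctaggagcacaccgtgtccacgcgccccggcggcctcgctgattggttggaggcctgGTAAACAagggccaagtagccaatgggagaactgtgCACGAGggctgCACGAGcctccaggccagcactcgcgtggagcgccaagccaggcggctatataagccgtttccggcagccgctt
Arrdc4: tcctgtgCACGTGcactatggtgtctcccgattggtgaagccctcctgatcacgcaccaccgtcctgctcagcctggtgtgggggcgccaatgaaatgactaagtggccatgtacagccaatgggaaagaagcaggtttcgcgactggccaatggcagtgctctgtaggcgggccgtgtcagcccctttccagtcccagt

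The Arrdc4 window held the E-box CACGTG, the core that MondoA and ChREBP bind, starting at -193 from the transcription start; of all 32851 windows 7.15% held it on either strand. The Txnip window held GTAAACA, the reverse complement of the forkhead motif TGTTTAC, starting at -121, and 3.65% of all windows held this motif on either strand. It also held the pair of imperfect E-boxes known from this promoter, CACGAG repeated after 5 bases, at -85. That pair was searched after the sequence was seen, overlaps none of the other matches, and occurred in 1 of all windows. A pair of perfect E-boxes 5 bases apart, the full glucocorticoid receptor palindrome and the CREB site TGACGTCA occurred in none of the 7 windows of the members; they were held by 0%, 0.00913% and 1.79% of all windows. No motif of the 6 searched, on both strands, occurred in the 3 windows of Arrdc3 or in those of Arrdc1 and Arrdc2. The G and C content of the Arrdc3 stretch was 72%, against 63% for Txnip and 59% for Arrdc4. These matches describe letters in a short window and not sites in use.

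Arrdc3 (Entrez gene 105171) read lower on all 3 arrays labelled KO than on any WT array. Its log2 values were 9.99 on WT 426, 10.08 on WT 428 and 10.18 on WT 430, and 9.83 on KO 427, 7.90 on KO 429 and 8.67 on KO 431. KO 429 and KO 431 lay far below the wildtype arrays, whereas KO 427 lay 0.16 below the lowest of them, a smaller distance than the span of the WT values. The mean was 10.08 ± 0.10 on the WT and 8.80 ± 0.97 on the KO arrays (SD, n = 3 each), a difference of -1.29 (SE 0.384 from the limma fit), or a 2.44-fold lower level. This was the fifth most negative difference of all 16331 probe sets.

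Compared with the mean of the WT arrays, Arrdc3 stood at -0.26 on KO 427, -2.19 on KO 429 and -1.42 on KO 431. Its SD among the KO arrays was 10.2 times that among the WT arrays and larger than the KO SD of 99.9% of probe sets. Among the WT arrays its SD exceeded that of 53.5% of probe sets, so the gene was not unusually variable there. The size of the difference moved with the arrays used. It was -1.80 without KO 427 (SE 0.196), -0.84 without KO 429 (SE 0.285) and -1.22 without KO 431 (SE 0.456). With an intensity trend and robust variance the SE of the difference was 0.535.

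**Figure D1:**
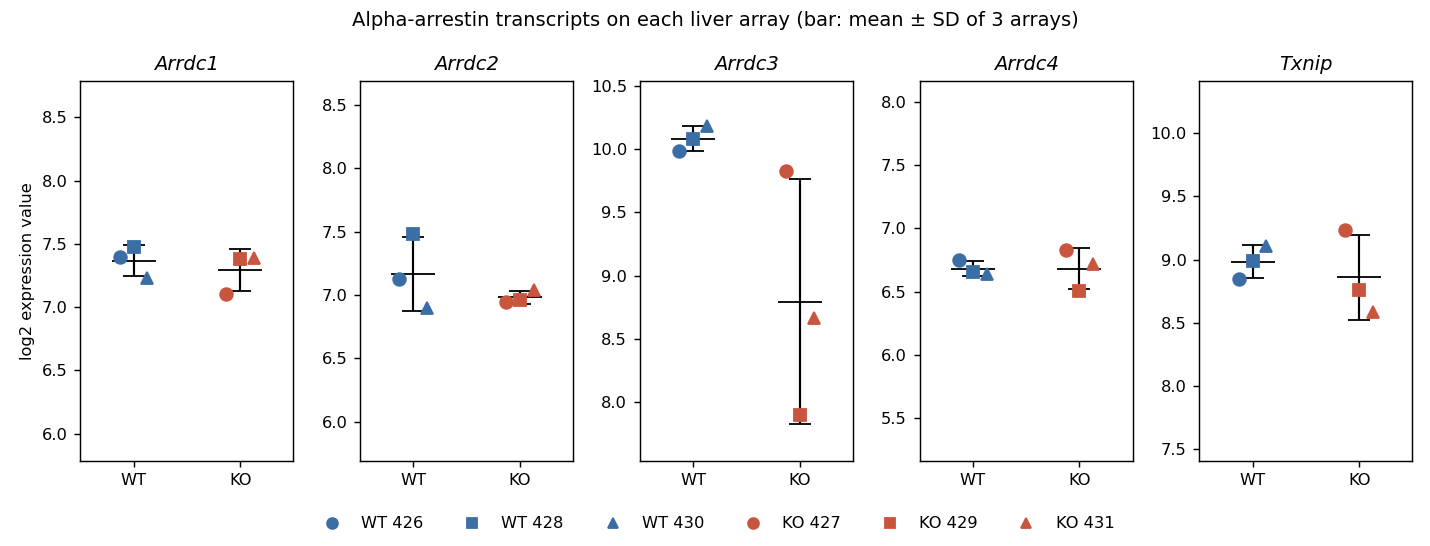
Each panel shows 1 alpha-arrestin gene, with the log2 expression value on the vertical axis (all panels span 3 log2 units) and the WT and KO groups on the horizontal axis; points are arrays and black bars the mean ± SD of 3 arrays. Arrdc3 shows WT points together between 9.99 and 10.18 and KO points spread from 7.90 to 9.83, while in the other 4 genes the groups overlap.

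Txnip (Entrez gene 56338), the member that inhibits thioredoxin, showed no such separation. It read 8.85, 8.99 and 9.11 on WT 426, WT 428 and WT 430, and 9.24 on KO 427, 8.76 on KO 429 and 8.58 on KO 431. KO 427 was the highest of the 6 arrays and KO 429 and KO 431 were the lowest, so the groups overlapped. The means were 8.98 ± 0.13 and 8.86 ± 0.34 (SD, n = 3 each), with a difference of -0.12 (SE 0.154). Without KO 427 the difference was -0.31, and without KO 431 it turned to 0.016. Txnip also varied more among the KO than among the WT arrays, with an SD 2.56 times as large. The same ratio was 2.78 for Arrdc4 and 1.33 for Arrdc1.

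Arrdc4 (Entrez gene 66412), which shares the glucose-sensing factors with Txnip and also restrains glucose uptake, had nearly equal group means. The WT arrays read 6.75 (WT 426), 6.66 (WT 428) and 6.64 (WT 430), and the KO arrays 6.83 (KO 427), 6.50 (KO 429) and 6.72 (KO 431). The KO values lay on both sides of the WT values. The difference was -0.00065 (SE 0.0926), and it turned to 0.033 without WT 426 and to 0.089 without KO 429. Detection calls were not used, so whether Arrdc4 lay above the background of the array is not known here.

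Arrdc2 (Entrez gene 70807) read 7.12 on WT 426, 7.48 on WT 428 and 6.90 on WT 430, against 6.94, 6.96 and 7.04 on KO 427, KO 429 and KO 431. Here the spread lay among the WT arrays, and the KO values fell inside their range. The difference was -0.19 (SE 0.131). It was -0.031 without WT 428 and -0.32 without WT 430. The SD among the KO arrays was 0.176 times that among the WT arrays, the reverse of what Arrdc3 showed.

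Arrdc1 (Entrez gene 215705), the vesicle-budding member, read 7.40, 7.47 and 7.23 on WT 426, WT 428 and WT 430. On KO 427 it read 7.10, the lowest of the 6 values, and on KO 429 and KO 431 it read 7.38 and 7.39, inside the wildtype range. The difference was -0.076 (SE 0.102) and turned to 0.020 without KO 427. Arrdc1 was thus lowest on the KO array where Arrdc3 and Txnip were highest.

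As a group, all 5 members had a negative difference, as had 47.5% of all probe sets, with a median of -0.12 against 0.0059 over all. At a limma adjusted p under 0.05, 0 of the 5 passed in either direction, as against 0.0245% of all probe sets. The groups did not overlap, with KO lower, for 1 member, Arrdc3, and for 4.47% of all probe sets. These counts set the members beside the whole array; because the family was chosen with this contrast known, nothing is read from them. Arrdc5, the remaining family member on the array, read lower by 0.18 on average (6.10 ± 0.13 on the WT and 5.92 ± 0.06 on the KO arrays, SD, n = 3 each), with overlapping groups and a limma adjusted p of 0.982. It was among the lowest 40% of probe sets by mean, and whether it lay above the background of the array is not known here.

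**Figure D2:**
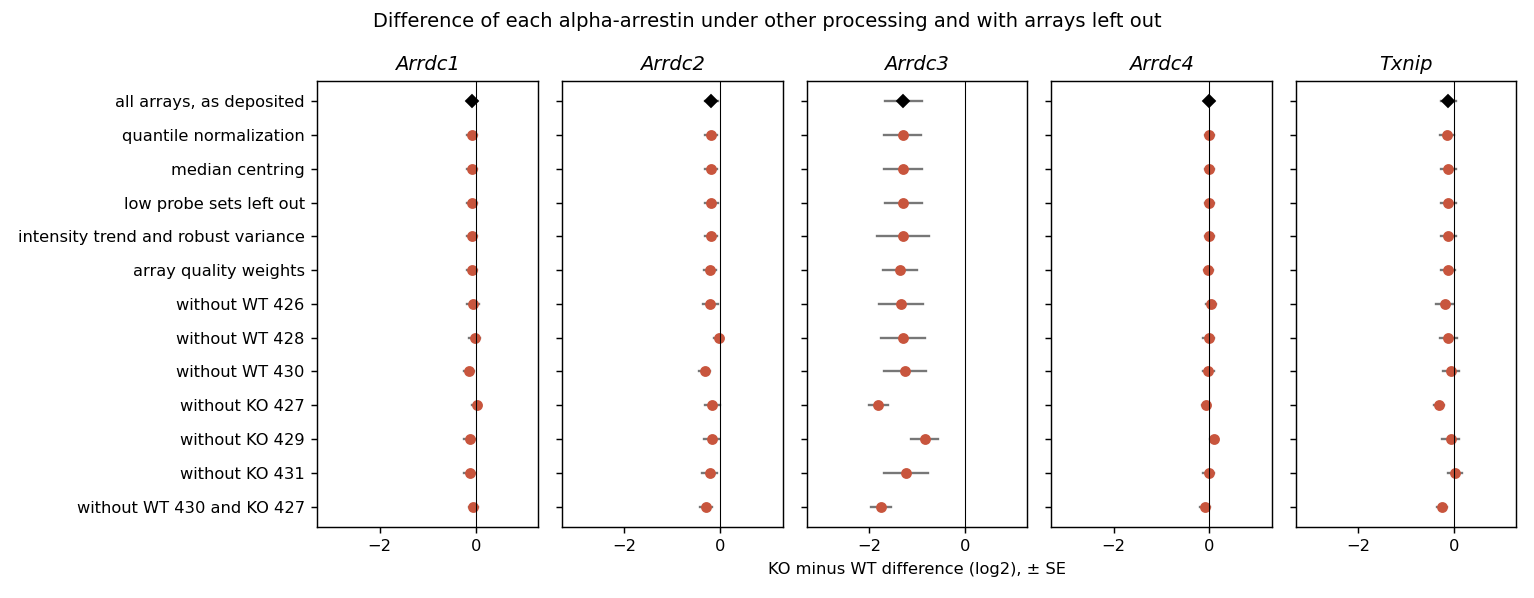
Each panel gives the KO minus WT difference on the log2 scale (horizontal axis) with its SE (bar) for 1 gene, for the deposited values (diamond) and under 12 other settings (circles), 1 per line. Arrdc3 lies between -1.80 and -0.84 in these settings, with the longest bar (SE 0.535) under the intensity trend with robust variance; Arrdc1, Arrdc4 and Txnip fall on both sides of 0.

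Across the 12 other settings the difference ranged from -1.80 to -0.84 for Arrdc3 and from -0.32 to -0.031 for Arrdc2. For Txnip it ranged from -0.31 to 0.016, for Arrdc1 from -0.14 to 0.020 and for Arrdc4 from -0.092 to 0.089. Quantile normalization gave -1.30 for Arrdc3 and -0.14 for Txnip.

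The members did not move as a block from array to array. Over the 6 arrays Pearson's r between Arrdc3 and Txnip was 0.69 (Spearman's rank correlation 0.60). It was -0.32 over the 4 arrays left without KO 429 and KO 431, so r depended on the arrays used. Those 4 arrays spanned only 9.83 to 10.18 for Arrdc3. For Arrdc3 and Arrdc4 r was 0.57 (rank correlation 0.029), and -0.97 without KO 429 and KO 431. Arrdc1 and Arrdc2 had r = 0.69 (rank correlation 0.94), and 0.99 without KO 427 and WT 430. Arrdc1 and Txnip were opposed (r = -0.70, rank correlation -0.49), and this turned to 0.78 without KO 427 and WT 430. Taken on deviations from the group means, r was 0.76 for Arrdc3 and Txnip, 0.86 for Arrdc3 and Arrdc4, and 0.65 for Arrdc1 and Arrdc2. It was -0.86 for Arrdc1 and Txnip and -0.76 for Arrdc1 and Arrdc3. These values describe 6 arrays of 2 groups and carry no test.

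The genes most like Arrdc3 were sought by Pearson's r over the 6 arrays among 1695 named probe sets that ranged over at least 0.5. The first was Nedd4l, a NEDD4-family ubiquitin ligase best known for removing sodium channels from the cell surface, with r = 0.96 and the same order of all 6 arrays (rank correlation 1). Nedd4l read 8.88, 8.94 and 8.99 on WT 426, WT 428 and WT 430, and 8.73, 8.43 and 8.55 on KO 427, KO 429 and KO 431. Its KO values all lay below its WT values, as for 4.47% of all probe sets, and this follows from the order shared with Arrdc3. Over the 4 arrays without KO 429 and KO 431, r was 0.99. The difference of Nedd4l was -0.36 (SE 0.0886), smaller than that of Arrdc3, and did not pass (limma adjusted p = 0.728, and 0.335 to 0.9997 over the 12 other settings).

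Next came Ier2, an immediate early gene (r = 0.95), Map3k5, the stress kinase ASK1 that thioredoxin holds inactive (0.94), Bach1, a haem-sensing repressor (0.94), and Klf11, a Krüppel-like transcription factor (0.93). Their differences were -0.31, -0.29, -0.28 and -0.27, and none passed (limma adjusted p from 0.951 to 0.982). Without KO 429 and KO 431, r was 0.93 for Map3k5 and 0.65 for Bach1, 0.23 for Klf11 and 0.061 for Ier2. The most opposed genes were the acute phase gene Orm3 (r = -0.95), Tmem45b (-0.95) and Cd14, the lipopolysaccharide co-receptor (-0.94). Orm3 read 7.85 on KO 427, 9.18 on KO 429 and 8.86 on KO 431, against 7.89 to 8.22 on the WT arrays, so that it was high where Arrdc3 was low. Without KO 429 and KO 431, r was 0.26 for Orm3, -0.0025 for Tmem45b and -0.47 for Cd14.

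The pattern most like that of Txnip was found in Klhl2, an adaptor of a cullin ubiquitin ligase (r = 0.98), in the esterase gene Esd (0.98) and in Hes1, a repressor in the Notch pathway (0.97). Edc3, a factor of mRNA decapping (0.97), and Rnd3, an atypical small GTPase (0.95), followed. Hes1 read 8.04 on KO 427, 7.46 on KO 429 and 6.94 on KO 431, and 7.48, 7.75 and 7.81 on WT 426, WT 428 and WT 430, so its 6 arrays stood in the same order as those of Txnip (rank correlation 1). The Ugcg values given above also stood in this order, with KO 427 highest and KO 431 lowest. What this shared order reflects was not tested. The most opposed were Tcim (r = -0.98), Pdk4, the kinase that shuts off pyruvate dehydrogenase in fasting (-0.96), and Sgk1, a kinase induced by glucocorticoids (-0.95). Pdk4 read 7.18 on KO 427, 7.89 on KO 429 and 8.12 on KO 431, with 7.79, 7.75 and 7.29 on the WT arrays in the order given above. Of the 1695 probe sets compared, 19 reached r = 0.9 or more with Txnip and 14 r = -0.9 or less; with Arrdc3 it was 11 and 11. Genes picked as the most extreme of so many on 6 arrays have a high r by that choice, and the values are descriptions.

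**Figure D3:**
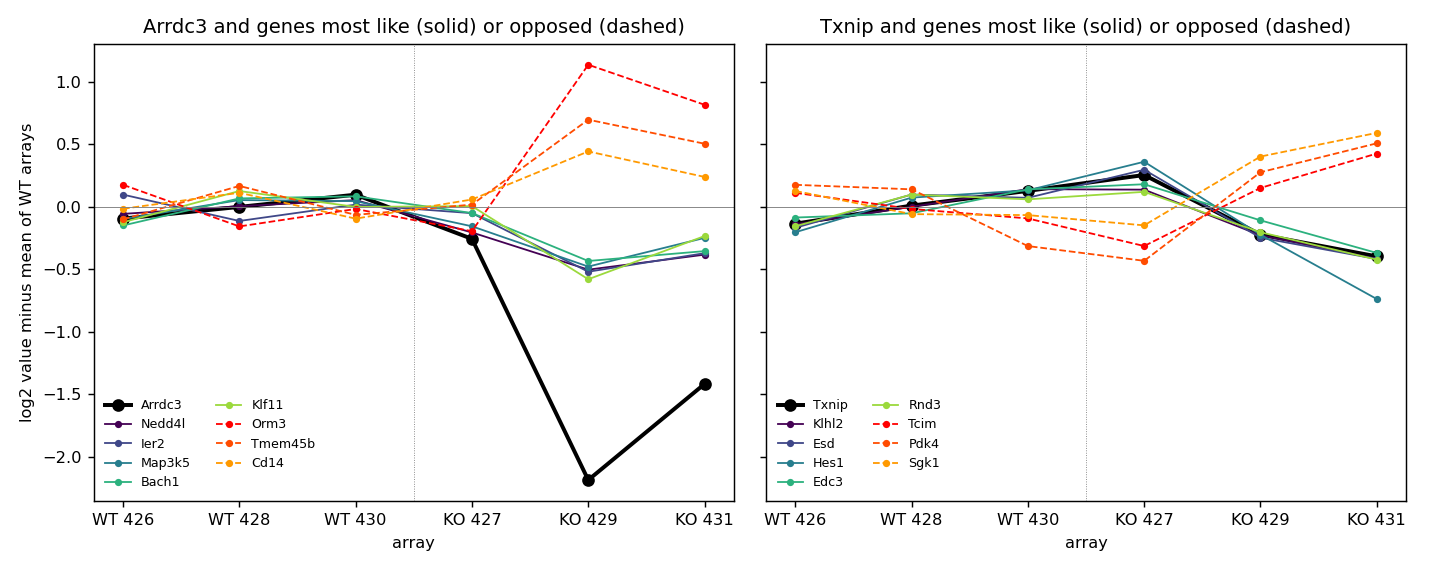
The vertical axis gives log2 values minus the mean of the WT arrays, for each array on the horizontal axis, with lines only to guide the eye; the left panel shows Arrdc3 (black), the 5 genes most like it (solid) and the 3 most opposed (dashed), the right panel the same for Txnip. Arrdc3 drops to -2.19 on KO 429 and -1.42 on KO 431, beyond any of its like genes, whereas Txnip keeps the scale of its like genes.

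Other markers moved on the same arrays. KO 429, where Arrdc3 was lowest, had the highest mean of 8 cholangiocyte markers, 6.97 against 6.68 and 6.79 on the other KO arrays and 6.70 to 6.77 on the WT arrays; 5 of the 8 had a positive difference. Krt19 (7.60 on KO 429, 6.33 to 6.46 elsewhere) and Epcam (6.86, 6.22 to 6.40 elsewhere) carried this mean. The other 6 averaged 6.88 on KO 429, against 6.93 and 6.81 on KO 427 and KO 431 and 6.80 to 6.91 on the WT arrays. Acta2, a smooth muscle actin gene of the stellate list, also stood out on KO 429 (9.05, with 7.38 to 7.78 elsewhere). KO 431 had the lowest mean of 10 Kupffer cell and macrophage markers, 8.14 against 8.46 to 8.67 on the WT arrays. KO 427 also lay below the WT arrays at 8.41, and KO 429 lay above them at 8.73. All 10 of these markers had a negative difference. The 8 adipose and muscle markers averaged 6.35 to 6.73 on the KO and 6.30 to 6.39 on the WT arrays (6 higher). Apart, the mean of the 4 muscle markers was high on KO 427 (7.06, with 6.16 to 6.29 elsewhere), led by Acta1 at 8.48. Myh4 did not share this, with 5.83 on KO 427 and 5.79 to 5.89 on the WT arrays. The mean of the 4 fat markers was high on KO 431 (7.09, with 6.40 to 6.53 elsewhere), led by Fabp4 at 8.99 and Adipoq at 6.92. Lep read 6.16 on KO 431, against 5.90 to 6.09 on the WT arrays. Cidec read 6.31 there, within its WT values of 6.23 to 6.40. These divisions of the lists were made after the values were seen. No marker of these lists passed limma's adjusted p, values on this scale have no 0, and the part of these cells in the values of Arrdc3 was not tested. In bulk liver, fewer cells of a type and less RNA per cell cannot be told apart.

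Exocrine pancreas markers averaged 9.47 on WT 430 and 6.57 to 6.77 on the other 5 arrays, and all 11 had a negative difference. Arrdc3 on WT 430 was 10.18 against 9.99 and 10.08 on the other WT arrays, and without WT 430 its difference was -1.24. Without both WT 430 and KO 427 it was -1.75 and that of Txnip -0.25. The 8 liver endothelial markers averaged 8.37 to 8.52 on the WT and 8.35 to 8.41 on the KO arrays (2 higher), and the 8 stellate cell markers 8.02 to 8.32 and 8.10 to 8.36 (5 higher; 8.27 on KO 429 without Acta2). The 7 lymphocyte markers averaged 6.38 to 6.58 and 6.45 to 6.67 (4 higher), and the 3 red blood cell markers 7.38 to 7.49 and 7.37 to 7.48 (1 higher).

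Around the members stand the ligases they recruit. Of 9 measured genes of the NEDD4 family and its adaptors, 0 passed in either direction in the limma fit, where 0.0245% of all probe sets passed; 6 had a negative difference, with a median of -0.030. Beside Nedd4l, these were led by Itch (-0.17), the ligase known to degrade Txnip itself, and Wwp1 (-0.11). The KO values of Itch were 9.31, 9.18 and 9.10 on KO 427, KO 429 and KO 431, all below the WT values of 9.32 to 9.44, with KO 427 just under them. Of 20 ESCRT genes, the machinery Arrdc1 uses, 0 passed and 11 were lower (median -0.014); Mvb12a (0.17), Vps25 (-0.14) and Mvb12b (-0.11) had the smallest p-values. Of 19 genes of the thioredoxin system, the partner of Txnip, 0 passed and 10 were lower (median -0.021). The smallest p-values were those of sulfiredoxin Srxn1, which was higher (0.13), and of the peroxiredoxins Prdx4 (-0.19) and Prdx6 (-0.10).

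Of 22 measured factors and targets of the carbohydrate response, 1 passed, G6pc, which was higher; 7 were higher and 15 lower, with a median of -0.064. G6pc, the last enzyme of gluconeogenesis, read 11.60 to 11.88 on the WT and 12.57 to 12.75 on the KO arrays, a difference of 0.93 (SE 0.0900, limma adjusted p = 0.0379, and 0.00443 to 0.206 over the 12 other settings). It did not pass without WT 426, WT 428, KO 427, KO 429 or KO 431. On KO 427 it read 12.57, near the 12.65 and 12.75 of KO 429 and KO 431, whereas Arrdc3 on KO 427 lay near the wildtype values. Elovl6 (0.65), a fatty acid elongase, and Mid1ip1 (0.48), an activator of acetyl-CoA carboxylase, did not pass (adjusted p = 0.951 for both).

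Hormone-responsive genes did not share 1 direction. Of 18 glucocorticoid-responsive genes 0 passed, 10 were higher and 8 lower (median 0.063). The smallest p-values were those of Ddit4, an inhibitor of mTORC1 (0.38), Zbtb16, a zinc finger repressor (-0.75), and Klf9 (-0.35), with adjusted p from 0.670 to 0.888. Zbtb16 resembled Arrdc3 in part, with 7.56 on KO 427, 6.90 on KO 429 and 6.76 on KO 431 against 7.50, 8.04 and 7.92 on WT 426, WT 428 and WT 430, so that KO 427 lay above the lowest WT array. Of 22 insulin and FoxO-responsive genes G6pc again passed and no other; 10 were higher and 12 lower (median -0.043), with -0.59 for the cell cycle inhibitor Cdkn1a and 0.36 for Klf15 (adjusted p = 0.670 and 0.888).

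**Figure D4:**
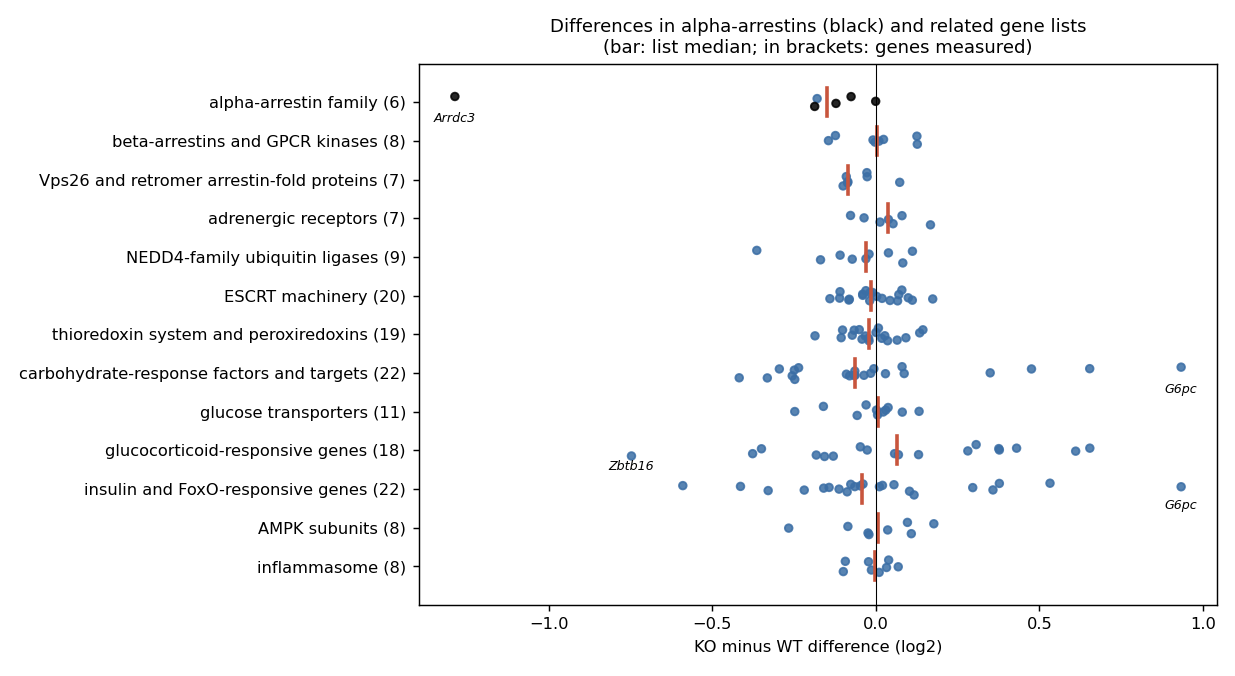
Points are the KO minus WT differences (log2, horizontal axis) of genes in the alpha-arrestin family, with the 5 members in black, and in 12 related lists (lines), with the median of each list as a bar and the number of genes measured in brackets. Arrdc3 at -1.29 lies farthest from 0 of all points shown, and G6pc at 0.93 was the 1 gene past the adjusted threshold.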

How the data were processed

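Per the labels' protocols, biotinylated cRNA was made from liver RNA for Affymetrix arrays. The deposited table holds log2 values, as read from their range of 5.38 to 14.69; how the authors corrected, normalized and summarised them is not stated in the labels. Rows are named by Entrez number, 1 probe set per gene. Of 16395 rows, 64 AFFX controls were left out; 15644 of the rest carried a symbol.

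The groups were compared in limma 3.58.1 under R 4.3.3 (lmFit, then eBayes, with 4 residual degrees of freedom and 4.85 added by the prior). Tests were two-sided, and p-values were adjusted by Benjamini-Hochberg over the 16331 gene probe sets, with a threshold of 0.05. The step was tested on simulated data. The members and the gene lists (13 lists, 173 genes, of which 162 were measured) were chosen with earlier results of these data known. Genes named from a list are its 3 with the smallest p and any that passed. The genes most like Arrdc3 and Txnip are the 5 highest and 3 lowest by Pearson's r among probe sets with a proper gene name. For Txnip, 1 probe set without such a name had an r at least that of Rnd3 and was left out. Which of the named genes are shown array by array was decided after their values were seen. For 1 gene the rule names, the value is not reported here. As alternatives, arrays were quantile-normalized or centred on their medians, the lowest 40% of probe sets by mean were dropped, limma was run with array weights or with an intensity trend and robust variance, other thresholds were used, and each array in turn, or WT 430 with KO 427, was left out. The number of arrays limits the precision. Promoter sequences came from RefSeq, GRCm38.p6. Figures were drawn with matplotlib 3.10.9.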

Additional observations from a re-analysis of the deposited data

How the results depend on the processing

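No paired analysis was made, because the groups share no number in their titles. Whether arrays with neighbouring numbers belong together is unknown here. The difference of Arrdc3 ranged from -1.80 to -0.84 under the 12 alternatives, and that of Arrdc2 also stayed below 0. For Arrdc3, leaving out arrays could not turn the sign, because all its KO values lay below its WT values. Dropping low probe sets or using an intensity trend with robust variance leaves a difference as it is. Array quality weights do not, and gave -1.355 for Arrdc3 and -0.023 for Arrdc4. The differences of Arrdc1, Arrdc4 and Txnip turned above 0 when 1 array was left out. In limma, 4 probe sets passed with all arrays, 8 with array quality weights, 8 without both WT 430 and KO 427 and 8 at an adjusted p under 0.1, while 815 had an unadjusted p under 0.05. Leaving out 1 array gave 4 without WT 430 and 0 without any other array (584 to 1135 at an unadjusted p under 0.05). Of the genes in the pathway lists 1 passed (G6pc), and 0 to 1 when 1 array was left out. The median of the adrenergic receptors moved from 0.038 to 0.12 without KO 427, and that of the inflammasome genes from -0.0018 to 0.060 without WT 428, -0.093 without WT 430 and -0.066 without both WT 430 and KO 427. Medians changed sign under at least 1 setting for 9 of the 13 lists, and kept it for the alpha-arrestin, retromer, NEDD4 and thioredoxin lists. The forkhead motif in the Txnip window lies on the other strand, so a search of the gene's strand alone gave 0 member windows. The cause of the changes on leaving out arrays was not tested. With 3 arrays a group, the SE of a member's difference lay between 0.0926 (Arrdc4) and 0.384 (Arrdc3).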

Other observations

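Genes farther from the alpha-arrestins were read in the same fit, and none passed limma's adjusted p (0.982 or above for every gene named here). Of 8 beta-arrestins and receptor kinases, 4 were higher and 4 lower (median 0.0034). The receptor kinase Grk4 differed by -0.15, with all KO values (5.84, 6.01 and 5.89 on KO 427, KO 429 and KO 431) below the WT values of 6.04 to 6.06. Arr3, the arrestin of cones, differed by 0.13 and the beta-arrestin gene Arrb1 by 0.13. Grk4 and Arr3 read about as low as Arrdc5, so whether they lay above background is not known either. Among 7 proteins of the retromer and related arrestin folds 6 were lower (median -0.086), with -0.087 for Rgp1, -0.10 for Vps26a and -0.090 for Vps26c. Of 7 adrenergic receptors 5 were higher (median 0.038), with 0.17 for Adra1b and 0.080 for Adra2b.

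Of 11 glucose transporters 7 were higher and 4 lower (median 0.0052). Slc2a2, the main glucose transporter of hepatocytes, read 11.59 on KO 427 and 11.71 on KO 429 but 12.19 on KO 431, against 12.00 to 12.18 on the WT arrays (difference -0.25); Slc2a9 differed by -0.16 and Slc2a8 by 0.13. Of 8 genes of AMPK, which phosphorylates Txnip, or of kinases upstream of AMPK, 4 were higher (median 0.0075). The difference was 0.18 for Prkab2, -0.27 for Prkag2 and 0.11 for the upstream kinase Stk11. Of 8 inflammasome genes 4 were higher (median -0.0018), with -0.093 for Nlrp3, which Txnip is reported to bind, 0.068 for Nek7 and -0.10 for Pycard.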
